A study of Arundo donax with 9 samples.

Results

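Leaves of giant cane (*Arundo donax*) watered with extreme salt were compared with leaves of plants watered without salt, across every protein that the assembled transcripts could be named after. The comparison took 6 of the 9 libraries of the series, 3 of extreme salt (G2-S4, 420 mM NaCl in the weekly irrigation water) and 3 of no salt (G2-CK, 0 mM). The other 3 libraries, of severe salt (G2-S3, 250 mM), entered the fit and are given only as an intermediate dose. Doses are those of the sample labels, and the study's methods state slightly different concentrations for both salt groups. All plants were of the single clone G2, grown from rhizomes in pots of sandy soil set out in randomized blocks, so that the results hold for 1 genotype. The sampled tissue was the third leaf from the top, fully expanded and not senescing, and the 3 libraries of a group came from separate biological replicates.

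Read counts of unigenes (clusters of assembled transcripts) that shared a Swiss-Prot protein name were summed, because the assembly of this polyploid grass splits a gene over many unigenes. A name thus stands for the closest characterised protein of another species, and several gene copies may lie behind it. Each library's list holds only unigenes above 0.3 FPKM, and a unigene unlisted in a library, at or below that limit, counted as 0 in the sums. The 9 lists held 255855 unigenes, and 99397 of them carried a Swiss-Prot name and no human description. They gave 13590 protein names, of which 10845 passed the filter on low counts and were tested. Levels are in CPM, read counts per M reads (megareads) of a library after scaling between libraries, and depend on transcript length, so that they are compared between libraries and not between proteins. Fold changes are log2 ratios of G2-S4 over G2-CK, given ± their standard error.

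Photosynthesis and respiration form the background of most of the groups below. *A. donax* is a C3 grass, in which Rubisco in the chloroplast fixes CO2 and also reacts with oxygen, and photorespiration returns the product of that second reaction to the Calvin cycle through chloroplasts, peroxisomes and mitochondria. Salt in the soil limits water uptake and brings sodium and chloride into the leaf. Plants are known to respond with compatible solutes such as proline, with pumping of protons that drives ion transport across the plasma membrane and the tonoplast, and with abscisic acid signalling.

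The label of the tissue was checked against leaf proteins. Names of the small chain of Rubisco summed to 550.3 to 644 CPM in G2-S4 and 3072 to 3682 CPM in G2-CK. Chlorophyll a-b binding proteins summed to 1270.1 to 1556 CPM in G2-S4 and 2856 to 3226 CPM in G2-CK, and Rubisco activase to 2131 to 2605 CPM in G2-S4 and 1686 to 2490 CPM in G2-CK. Green leaf tissue was thus present in all 6 libraries. Markers of other cells were summed in the same way. In the list for dividing cells the name with the most reads was histone H3.3, so its sum does not measure cell division alone. Markers of dividing cells summed to 4723 to 5073 CPM in G2-S4 and 4416 to 5176 CPM in G2-CK (1 of 77 names was unlisted in all 6), epidermis and cuticle markers to 1136 to 1478 CPM in G2-S4 and 812 to 1072 CPM in G2-CK, phloem markers to 1605 to 1754 CPM in G2-S4 and 1291 to 1543 CPM in G2-CK, and markers of roots and rhizomes to 616 to 660 CPM in G2-S4 and 439 to 482 CPM in G2-CK. Sums and single names did not always point the same way, since of the tested epidermis and cuticle names 6 of 24 were higher and 11 lower (median -0.35) although their sum was higher in G2-S4. Of the tested markers of dividing cells 10 of 48 were higher and 10 lower (20.8% each), of phloem 4 of 12 were higher and 1 lower (33.3% and 8.33%), and of roots and rhizomes 11 of 27 were higher and 4 lower (40.7% and 14.8%). The epidermis and cuticle counts are 25% and 45.8%. Over all names tested 26.3% were called in each direction. The part of differences in cell content in the results was not tested, and in RNA of whole leaves fewer cells of a type and less RNA per cell cannot be told apart.

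Depth was even, with 22.86 to 24.12 M listed reads in G2-S4 and 22.79 to 25.44 M listed reads in G2-CK. Unigenes with a human description took 0.0445% to 0.138% of the reads in G2-S4 and at most 0.000153% in G2-CK, and were left out. Names whose best hit lay outside the green plants held 9.09 ± 0.05% of the reads in G2-S4 and 9.01 ± 0.16% in G2-CK (SD, n = 3 each, exact two-sided permutation p = 0.5, the smallest possible being 0.1).

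Extreme salt went with a broad change. At an adjusted p under 0.05 in edgeR's quasi-likelihood test 5703 of the 10845 names (52.6%) were called different, 2855 higher in G2-S4 (26.3%) and 2848 lower (26.3%), around a median log2 fold change of -0.00094. Most changes were small. At least 2-fold higher were 874 called names and at least 2-fold lower 845, and at least 8-fold higher were 141 and lower 72. Of the calls, 4292 (75.3%) held in each fit that left out 1 of the 6 libraries. Called or not, 3435 of the 10845 names were higher and 3479 lower in G2-S4 without overlap between the groups. Libraries of the 2 groups lay 1.04 to 1.09 apart (root mean square difference in log2 CPM over names), against 0.382 to 0.465 among G2-S4 libraries and 0.323 to 0.401 among G2-CK libraries. Names called higher held 35.4 ± 0.372% of the reads in G2-S4 and 19.1 ± 0.472% in G2-CK, while those called lower held 17.0 ± 0.458% in G2-S4 and 30.1 ± 0.673% in G2-CK (SD, n = 3), figures that the calls themselves fix.

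**Figure D1:**
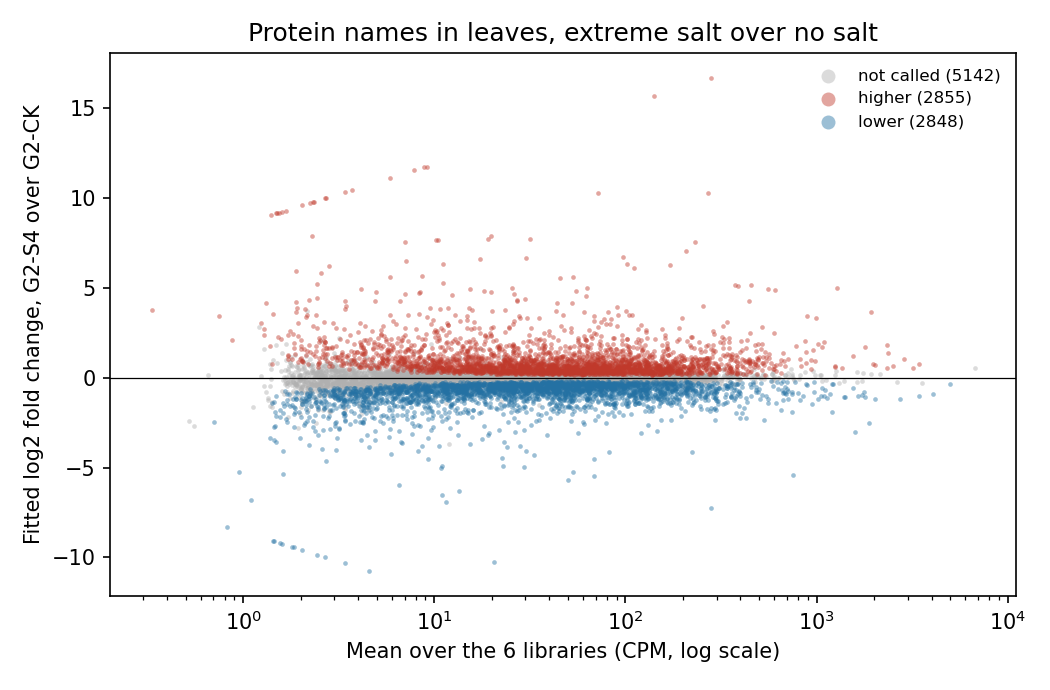
Fitted log2 fold change of G2-S4 over G2-CK (vertical axis) against the mean CPM over the 6 libraries (horizontal log axis), 1 point for each of the 10845 protein names tested. The 2855 names called higher (red) and the 2848 called lower (blue) are spread over low and high levels alike, and the diagonal streaks at the far top and bottom are names unlisted in 1 group, whose fitted value is set by the fit and is no measured size.

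The changes differed with the part of the cell that a protein name states, most clearly for chloroplastic and vacuolar names. Of 1107 names with the word chloroplastic, 608 were lower in G2-S4 (54.9%) and 197 higher (17.8%), with a median log2 fold change of -0.40. Of 579 mitochondrial names, 192 were higher (33.2%) and 140 lower (24.2%), with a median of only 0.07. Of 53 peroxisomal or glyoxysomal names 22 were higher (41.5%) and 19 lower (35.8%), with a median of 0.06. Of 15 plasma membrane names 5 were higher (33.3%) and 2 lower (13.3%). Among 83 names with vacuolar, tonoplast or V-type in them 39 were higher (47.0%) and 6 lower (7.23%). The 9071 names without such a word were near the background of 26.3% in each direction, at 26.6% higher and 23.3% lower. This split by words was chosen after the values were seen and carries no test of its own.

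Proteins of the light reactions were mostly lower. No photosystem subunit was called higher and 26 of 30 were called lower, with a median log2 fold change of -1.32. None of the 14 light-harvesting proteins was higher and 11 were lower (median -0.86), and of 26 names of thylakoid electron transport and ATP synthase none was higher and 22 were lower (median -0.89). Photosystem I subunit XI, which joins the light-harvesting complex to the core, had 524, 522 and 488 CPM in G2-S4, against 1870.1, 1953 and 1898 CPM in G2-CK (log2 fold change -1.90 ± 0.09, adjusted p = 1.9e-06). Its groups lay far apart, and within each group the libraries were close. The oxygen-evolving enhancer protein 1, which stabilises the manganese cluster of photosystem II, had 1243, 1215 and 1104 CPM in G2-S4, against 2076, 2419.7 and 2382 CPM in G2-CK (log2 fold change -0.95 ± 0.12, adjusted p = 1.7e-04). The photosystem II 22 kDa protein, needed to release excess light energy as heat, had 543, 481 and 617 CPM in G2-S4, against 954, 1019.8 and 856 CPM in G2-CK (log2 fold change -0.79 ± 0.11, adjusted p = 3.4e-04). In neither did a library of one group reach the other group.

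Antenna proteins differed in size of change. Chlorophyll a-b binding protein CP29.1, a minor antenna chosen after its values were seen, had 42.6, 48.2 and 59.0 CPM in G2-S4, against 249, 255 and 264 CPM in G2-CK (log2 fold change -2.36 ± 0.15, adjusted p = 6.9e-06). CP26, likewise a minor antenna of photosystem II, had 102, 123 and 134 CPM in G2-S4, against 421, 468 and 419 CPM in G2-CK (log2 fold change -1.87 ± 0.12, adjusted p = 6.9e-06). For the abundant antenna name 1B-21 the change was smaller, with 636, 731 and 776 CPM in G2-S4, against 1082, 1307 and 1308 CPM in G2-CK (log2 fold change -0.79 ± 0.12, adjusted p = 4.8e-04). An exception was chlorophyll a-b binding protein 1, at 100.5, 79.5 and 72.6 CPM in G2-S4, against 58.6, 89.0 and 96.4 CPM in G2-CK (adjusted p = 0.83), where the groups overlapped. In electron transport, the iron-sulfur subunit of the cytochrome b6-f complex averaged 823 ± 68.7 CPM in G2-S4 and 1538 ± 100.04 CPM in G2-CK (log2 fold change -0.90 ± 0.09, adjusted p = 6.1e-05) and the leaf isozyme of ferredoxin--NADP reductase 1299 ± 114 CPM in G2-S4 and 2242 ± 167 CPM in G2-CK (log2 fold change -0.79 ± 0.09, adjusted p = 1.3e-04).

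Of the 4 photosystem names that were not called, D1, CP43 and D2 are encoded in the plastid genome, whose transcripts an oligo(dT) selection catches poorly. Protein D1, the core of photosystem II, had 184, 98.5 and 121 CPM in G2-S4, against 132, 144 and 218 CPM in G2-CK (adjusted p = 0.36), with overlapping groups. CP43, an inner antenna of the same core, had 51.2, 44.98 and 46.8 CPM in G2-S4, against 45.2, 44.98 and 45.4 CPM in G2-CK (log2 fold change 0.08 ± 0.11, adjusted p = 0.58), and the D2 protein 35.4, 34.2 and 27.5 CPM in G2-S4, against 25.9, 31.0 and 30.7 CPM in G2-CK (log2 fold change 0.15 ± 0.20, adjusted p = 0.56). Other plastid-encoded names were lower, such as Photosystem II CP47 reaction center protein at -1.48 ± 0.10 on the log2 scale (adjusted p = 9.4e-06) and Photosystem I P700 chlorophyll a apoprotein A1 at -1.37 ± 0.11 on the log2 scale (adjusted p = 1.7e-05). CP43, D2, CP47 and A1 were chosen after their values were seen.

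Enzymes of carbon fixation were mostly lower. Of 20 Calvin cycle names 16 were lower and 1 higher, with a median log2 fold change of -0.96. The small chain A of Rubisco had 514, 565 and 602 CPM in G2-S4, against 2954, 3509 and 3093 CPM in G2-CK (log2 fold change -2.51 ± 0.11, adjusted p = 1.8e-06), which is 5.68-fold lower in G2-S4. Of its 9 unigenes listed in the 6 libraries 9 were lower without overlap. Phosphoribulokinase, which makes the CO2 acceptor, had 884, 994 and 857 CPM in G2-S4, against 1651, 2199.9 and 1901 CPM in G2-CK (log2 fold change -1.07 ± 0.12, adjusted p = 8.2e-05). Rubisco activase, which frees Rubisco of inhibitory sugar phosphates, stood at 2196, 2126 and 2601 CPM in G2-S4, against 1675, 2473 and 1894 CPM in G2-CK (adjusted p = 0.32). Fructose-bisphosphate aldolase 3, chosen after its values were seen, was the single Calvin cycle name called higher, at 85.3, 88.8 and 109.5 CPM in G2-S4, against 46.2, 36.9 and 35.2 CPM in G2-CK (log2 fold change 1.26 ± 0.17, adjusted p = 2.5e-04).

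Factors that fold Rubisco were lower as well, with 1 exception. The name RuBisCO large subunit-binding protein subunit alpha, a chaperonin of the chloroplast that holds new large subunits, was the largest decrease under the naming rule at 1.73, 2.85 and 1.22 CPM in G2-S4, against 52.4, 154 and 89.2 CPM in G2-CK (log2 fold change -5.67 ± 1.15, adjusted p = 0.0028). It rests on 1 unigene, and the fragment entry of the same subunit had 389, 353 and 356 CPM in G2-S4, against 627, 644 and 610.3 CPM in G2-CK (log2 fold change -0.78 ± 0.08, adjusted p = 6.6e-05). The beta subunit had 799, 702 and 676 CPM in G2-S4, against 1449.8, 1475 and 1453 CPM in G2-CK (log2 fold change -1.01 ± 0.11, adjusted p = 9.9e-05). Chaperonin-like RbcX protein 2, a later factor of Rubisco assembly, went the other way with 714, 539.6 and 458 CPM in G2-S4, against 116, 144 and 111 CPM in G2-CK (log2 fold change 2.21 ± 0.27, adjusted p = 1.6e-04). These 3 were added after the values were seen.

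In photorespiration 14 of 21 names were lower and 3 higher (median -1.01). The peroxisomal glycolate oxidase GLO5 had 1779.8, 1666 and 1622 CPM in G2-S4, against 3819, 3752 and 3842 CPM in G2-CK (log2 fold change -1.17 ± 0.09, adjusted p = 1.8e-05). Serine--glyoxylate aminotransferase, which passes the amino group of serine to glyoxylate in the peroxisome, had 2548, 2294 and 1995 CPM in G2-S4, against 4656, 4751 and 4318 CPM in G2-CK (log2 fold change -1.01 ± 0.10, adjusted p = 5.8e-05). Hydroxypyruvate reductase, named glycerate dehydrogenase HPR, had 1265, 1300.1 and 1132 CPM in G2-S4, against 2618, 3121 and 2747 CPM in G2-CK (log2 fold change -1.20 ± 0.11, adjusted p = 2.8e-05). In all 3 enzymes every unigene listed in the 6 libraries was lower without overlap. The mitochondrial steps were split. The glycine cleavage H protein, with a log2 fold change of -1.97 ± 0.11, and serine hydroxymethyltransferase 1, with one of -1.67 ± 0.22, were lower (adjusted p = 5.3e-06 and 2.6e-04), both named after their values were seen. The hydroxymethyltransferase entry was few in reads, at 1.71, 1.31 and 1.38 CPM in G2-S4, against 4.83, 5.54 and 3.58 CPM in G2-CK. Glycine dehydrogenase 2, the decarboxylating subunit of the same complex, had 2753, 2950.2 and 2685 CPM in G2-S4, against 1585, 2212 and 1885 CPM in G2-CK (log2 fold change 0.56 ± 0.19, adjusted p = 0.034), and this call was lost when any of the 6 libraries other than G2-CK replicate 2, or G2-S3 replicate 1, was left out. A second glycolate oxidase name, GLO3, rose to 289, 391.6 and 315 CPM in G2-S4, against 48.1, 49.4 and 50.2 CPM in G2-CK (log2 fold change 2.75 ± 0.20, adjusted p = 1.1e-05), and was also chosen after its values were seen.

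Of 44 plastid ribosomal proteins 39 were lower and 1 higher, with a median of -1.06. The 30S protein S1 had 238, 218 and 227 CPM in G2-S4, against 501, 519 and 435 CPM in G2-CK (log2 fold change -1.09 ± 0.09, adjusted p = 2.2e-05) and the 50S protein L24 292, 251 and 261 CPM in G2-S4, against 527, 532 and 474 CPM in G2-CK (log2 fold change -0.93 ± 0.09, adjusted p = 5.1e-05). Protein L1 of the large subunit, at 384, 325 and 269 CPM in G2-S4, against 312, 387 and 374 CPM in G2-CK, overlapped between the groups and was not called. Cytosolic ribosomal proteins did not follow, since 100 of 119 were not called and the median was 0.14. Their 15 names called higher were 3 without G2-CK replicate 3 or G2-S4 replicate 3, 4 without G2-CK replicate 2 or G2-S4 replicate 1, 9 without G2-CK replicate 1, 24 without G2-S4 replicate 2 and 26 without G2-S3 replicate 3.

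For chlorophyll, 14 of 21 synthesis names were lower and 2 higher (median -0.59). The ChlI subunit of magnesium chelatase, which directs the precursor to chlorophyll, had 268, 249 and 228 CPM in G2-S4, against 368, 371 and 379 CPM in G2-CK (log2 fold change -0.59 ± 0.11, adjusted p = 0.0014). Geranylgeranyl diphosphate reductase, the called synthesis name with the most reads, was higher (log2 fold change 0.46 ± 0.17, adjusted p = 0.045). Its call was lost with a replicate block and when any G2-CK library was left out. Delta-aminolevulinic acid dehydratase, with the most reads of the synthesis names, was not called (adjusted p = 0.39). Of 9 breakdown names 4 were higher and 1 lower, and the higher ones were 2 when replicate 1 of either group was left out. STAY-GREEN, which starts the dismantling of chlorophyll with its proteins, had 685, 609 and 366 CPM in G2-S4, against 199, 112 and 114 CPM in G2-CK (log2 fold change 1.96 ± 0.31, adjusted p = 6.5e-04), so that the highest library was G2-S4 replicate 1 and the lowest G2-S4 value was still above every G2-CK value. Pheophytinase, the breakdown name with the most reads, was not called (adjusted p = 0.16). The lower breakdown name was 7-hydroxymethyl chlorophyll a reductase (log2 fold change -0.64 ± 0.11, adjusted p = 0.0014).

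**Figure D2:**
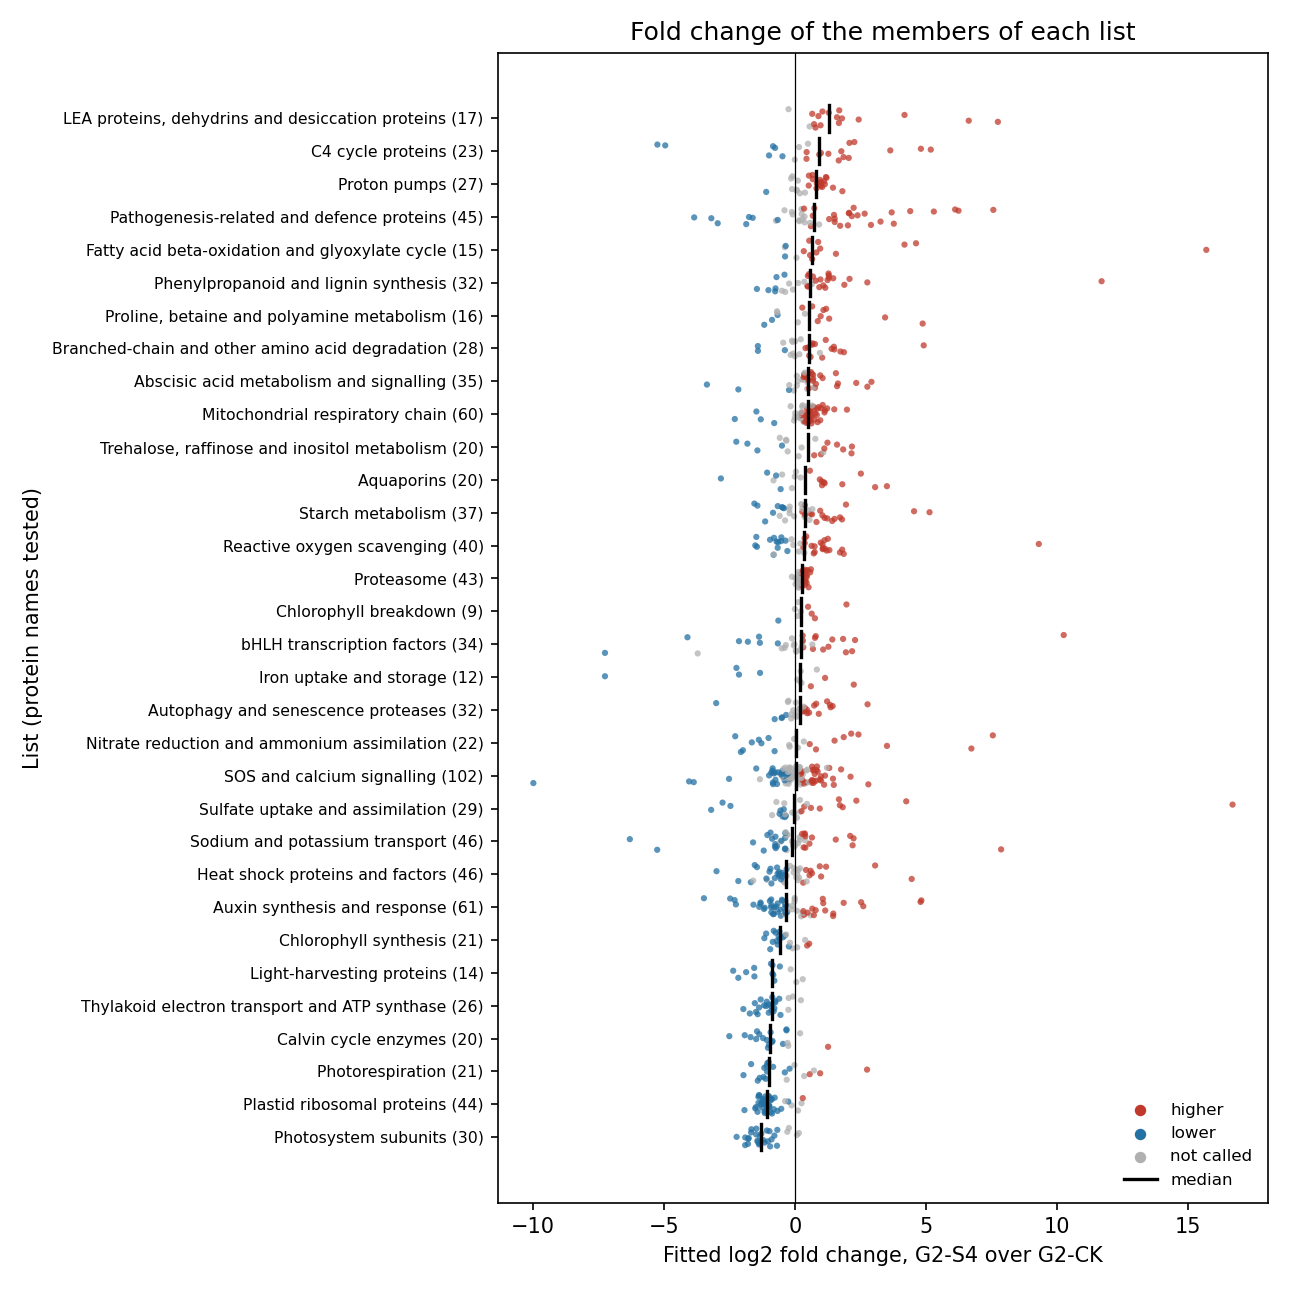
Fitted log2 fold change of G2-S4 over G2-CK (horizontal axis) for each member of 32 lists of protein names (rows, with the number tested in brackets, ordered by median). Points are protein names called higher (red), lower (blue) or not called (grey) and black bars are medians, from 1.29 for late embryogenesis abundant proteins and dehydrins down to -1.32 for photosystem subunits. Points beyond about 8 on either side include names unlisted in 1 group, whose position is set by the fit.

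Of proteins of the C4 cycle more names were higher than lower, and no phosphoenolpyruvate carboxylase name was called higher. The list of proteins that carry the C4 cycle in C4 plants has other duties in a C3 leaf, among them the return of carbon from organic acids and the supply of the citric acid cycle. Of its 23 names 14 were higher and 6 lower, with a median log2 fold change of 0.93. Phosphoenolpyruvate carboxykinase (ATP), which turns oxaloacetate into phosphoenolpyruvate, had 3239, 3574 and 3877 CPM in G2-S4, against 329, 258 and 271 CPM in G2-CK (log2 fold change 3.64 ± 0.33, adjusted p = 3.1e-05). The entry carboxykinase 1 had 779.5, 875 and 996 CPM in G2-S4, against 25.3, 21.98 and 25.6 CPM in G2-CK (log2 fold change 5.18 ± 0.34, adjusted p = 8.0e-06). The chloroplastic NADP-dependent malic enzyme, which releases CO2 from malate, had 1129.7, 1134 and 1351 CPM in G2-S4, against 392.5, 328 and 340.5 CPM in G2-CK (log2 fold change 1.77 ± 0.14, adjusted p = 1.7e-05). Pyruvate, phosphate dikinase 1, which regenerates phosphoenolpyruvate, had 581, 688 and 823 CPM in G2-S4, against 166, 173 and 157 CPM in G2-CK (log2 fold change 2.08 ± 0.18, adjusted p = 2.2e-05). Cytoplasmic aspartate aminotransferase, which links aspartate with oxaloacetate, had a log2 fold change of 2.05 ± 0.14 (adjusted p = 8.4e-06).

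Phosphoenolpyruvate carboxylase itself was split among its entries. Carboxylase 1 stood at 497, 642 and 517 CPM in G2-S4, against 611, 451 and 426 CPM in G2-CK (adjusted p = 0.42) with overlapping groups, and carboxylase 2 and the entry without a number had log2 fold changes of -0.84 ± 0.12 and -0.76 ± 0.13 (adjusted p = 3.5e-04 and 0.0012). The kinases that phosphorylate and activate it were among the 10 largest decreases under the naming rule. Kinase 2 had 2.68, 2.35 and 3.11 CPM in G2-S4, against 121, 96.2 and 93.8 CPM in G2-CK (log2 fold change -5.25 ± 0.37, adjusted p = 9.8e-06), and kinase 1 had 0.956, 2.06 and 2.48 CPM in G2-S4, against 69.1, 53.7 and 48.6 CPM in G2-CK (log2 fold change -4.95 ± 0.66, adjusted p = 2.6e-04). The NADP-dependent malate dehydrogenase of the chloroplast, which exports reducing power as malate, was lower at 381, 359.8 and 358 CPM in G2-S4, against 657, 782 and 743 CPM in G2-CK (log2 fold change -0.99 ± 0.11, adjusted p = 8.9e-05). Carboxykinase 1, the dikinase, the aminotransferase and both lower carboxylases were chosen after their values were seen.

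Mitochondrial uncoupling protein 5, a carrier of dicarboxylic acids in Arabidopsis, had 2295, 2279.7 and 2867 CPM in G2-S4, against 101, 70.9 and 66.1 CPM in G2-CK (log2 fold change 4.97 ± 0.41, adjusted p = 2.0e-05), and 6 of 6 unigenes listed in the 6 libraries were higher without overlap. The tonoplast dicarboxylate transporter, which moves malate into the vacuole in Arabidopsis, had 729, 937 and 599 CPM in G2-S4, against 12.6, 25.3 and 26.6 CPM in G2-CK (log2 fold change 5.13 ± 0.36, adjusted p = 1.0e-05). It was chosen after its values were seen. Oxalate--CoA ligase, the first step in the breakdown of oxalate in Arabidopsis, had 1581, 2010.4 and 1833 CPM in G2-S4, against 222, 149.7 and 170.0 CPM in G2-CK (log2 fold change 3.32 ± 0.31, adjusted p = 3.9e-05).

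Names of the mitochondrial respiratory chain were mostly higher. Of 60 names 41 were higher and 4 lower, with a median log2 fold change of 0.50, and their reads summed to 7312 ± 407 CPM in G2-S4 and 4115 ± 238 CPM in G2-CK (SD, n = 3). Succinate dehydrogenase is complex II of the chain and a step of the citric acid cycle. Its flavoprotein subunit had 1724, 1642 and 1889 CPM in G2-S4, against 507, 447 and 375 CPM in G2-CK (log2 fold change 1.98 ± 0.20, adjusted p = 5.4e-05), and its iron-sulfur subunit 1, chosen after its values were seen, had 205, 152 and 186 CPM in G2-S4, against 73.5, 65.7 and 52.6 CPM in G2-CK (log2 fold change 1.50 ± 0.19, adjusted p = 1.9e-04). The gamma subunit of ATP synthase averaged 263 ± 8.82 CPM in G2-S4 and 195 ± 10.7 CPM in G2-CK (log2 fold change 0.43 ± 0.12, adjusted p = 0.014), a call lost without G2-CK replicate 3, where the value was 0.41. Cytochrome c1-1 of complex III was not called at 279.8, 250.3 and 271 CPM in G2-S4, against 249, 252 and 227 CPM in G2-CK.

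The 4 lower names of the chain were few in reads and are usually encoded in the mitochondrial genome of plants. Subunit 1 of cytochrome c oxidase had 1.96, 2.19 and 1.86 CPM in G2-S4, against 3.53, 4.37 and 6.99 CPM in G2-CK, subunit 2 had 0.913, 0.335 and 0.470 CPM in G2-S4, against 2.59, 2.42 and 3.35 CPM in G2-CK, ATP synthase subunit alpha 5.14, 5.71 and 3.66 CPM in G2-S4, against 8.57, 8.30 and 8.25 CPM in G2-CK, and the NADH dehydrogenase iron-sulfur protein 2 0.923, 1.37 and 2.43 CPM in G2-S4, against 4.82, 4.42 and 4.05 CPM in G2-CK. With unlisted unigenes at the limit the log2 fold changes of the oxidase subunits 1 and 2 and of the iron-sulfur protein were -0.70, -1.51 and -0.67, in place of -1.30, -2.30 and -1.47. With unigenes of human description kept in, the log2 fold changes of the 2 oxidase subunits turned to 3.49 and 2.22, and the lower names of the list were 1 in place of 4. ATP synthase subunit alpha kept its direction there but not its call (-0.58). All 4 were named after their values were seen.

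Of 15 names of beta-oxidation and the glyoxylate cycle 11 were higher and 2 lower (median 0.66). 3-Ketoacyl-CoA thiolase 2, which cleaves off acetyl-CoA in the peroxisome, had 796, 762 and 631 CPM in G2-S4, against 468, 476 and 445 CPM in G2-CK (log2 fold change 0.66 ± 0.09, adjusted p = 3.6e-04). The enzymes particular to the glyoxylate cycle, which turns acetyl-CoA into organic acids, differed most. Isocitrate lyase was unlisted in every G2-CK and G2-S3 library and had 344, 421 and 79.8 CPM in G2-S4, at least 166-fold higher when each unlisted value is put at the listing limit of 0.3 FPKM (a level scaled to transcript length and depth). G2-S4 replicate 3 was the lowest of the 3. Malate synthase had 93.0, 115 and 90.4 CPM in G2-S4, against 6.63, 4.06 and 5.85 CPM in G2-CK (log2 fold change 4.18 ± 0.29, adjusted p = 9.2e-06), and the glyoxysomal entry 22.7, 28.4 and 20.5 CPM in G2-S4, against 1.25, 1.03 and 0.578 CPM in G2-CK (log2 fold change 4.62 ± 0.28, adjusted p = 6.0e-06, and 4.13 with unlisted unigenes at the limit). These 3 were named after their values were seen. The glyoxysomal malate dehydrogenase, at 1127, 1049 and 1014 CPM in G2-S4, against 1212, 1464 and 1401 CPM in G2-CK (log2 fold change -0.35 ± 0.09, adjusted p = 0.011), was lower.

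In amino acid degradation 15 of 28 names were higher and 3 lower (53.6% and 10.7%, against 26.3% each way over all names, median 0.52). Glutamate dehydrogenase 2, which releases ammonium from glutamate in the mitochondrion, had 961, 1216 and 1059 CPM in G2-S4, against 37.7, 35.0 and 34.7 CPM in G2-CK (log2 fold change 4.91 ± 0.32, adjusted p = 8.0e-06). Its relative glutamate dehydrogenase 1 went the other way, with 22.9, 26.1 and 25.41 CPM in G2-S4, against 73.4, 60.9 and 64.6 CPM in G2-CK (log2 fold change -1.42 ± 0.11, adjusted p = 1.4e-05), and was named for that contrast after its values were seen. 4-Hydroxyphenylpyruvate dioxygenase, of tyrosine breakdown and tocopherol synthesis, had 1061, 867 and 519 CPM in G2-S4, against 226, 226 and 217 CPM in G2-CK (log2 fold change 1.87 ± 0.23, adjusted p = 1.6e-04), and the alpha 2 subunit of 2-oxoisovalerate dehydrogenase, of branched-chain amino acids, 472, 465 and 333 CPM in G2-S4, against 205, 214 and 199 CPM in G2-CK (log2 fold change 1.04 ± 0.15, adjusted p = 4.8e-04). In both, G2-S4 replicate 3 was the lowest of its group and still above all G2-CK libraries.

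Nitrogen reduction and assimilation were split. Of 22 names 9 were higher and 8 lower (40.9% and 36.4%, against 26.3% each way over all names, median 0.04). Nitrate reductase [NAD(P)H], the enzyme that makes nitrite, had 367, 453 and 559 CPM in G2-S4, against 2.95, 2.94 and 1.42 CPM in G2-CK (log2 fold change 7.55 ± 0.70, adjusted p = 3.7e-05, and 6.99 with unlisted unigenes at the limit). Nitrate reductase [NADH] 1 had 508, 518 and 579.6 CPM in G2-S4, against 153, 108 and 102 CPM in G2-CK (log2 fold change 2.15 ± 0.15, adjusted p = 1.0e-05) and the fragment entry of ferredoxin--nitrite reductase, the next enzyme, 185, 193 and 128 CPM in G2-S4, against 14.3, 12.8 and 17.2 CPM in G2-CK (log2 fold change 3.51 ± 0.31, adjusted p = 3.1e-05). Asparagine synthetase, which stores nitrogen as asparagine, had 326, 146 and 106 CPM in G2-S4, against 2.51, 1.15 and 1.74 CPM in G2-CK (log2 fold change 6.73 ± 0.53, adjusted p = 1.7e-05, and 5.16 with unlisted unigenes at the listing limit). The chloroplastic glutamine synthetase, which binds ammonium into glutamine, was lower with 269, 281 and 245 CPM in G2-S4, against 498, 594 and 509.6 CPM in G2-CK (log2 fold change -1.01 ± 0.10, adjusted p = 5.5e-05). Ammonium transporter 1 member 1, of a family at the plasma membrane, had 41.4, 29.4 and 42.2 CPM in G2-S4, against 176, 153 and 145 CPM in G2-CK (log2 fold change -2.07 ± 0.24, adjusted p = 1.1e-04). Ferredoxin-dependent glutamate synthase, the partner of glutamine synthetase in the chloroplast, was not called at 2492, 2562 and 2249.6 CPM in G2-S4, against 2477, 3139 and 2901 CPM in G2-CK. Nitrite reductase and the ammonium transporter were chosen after their values were seen.

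Sulfate assimilation had 10 higher and 9 lower names of 29 (34.5% and 31.0%, against 26.3% each way over all names; median -0.03). Sulfate transporter 3.1 had 593, 823 and 1102 CPM in G2-S4, against 43.9, 45.3 and 43.4 CPM in G2-CK (log2 fold change 4.25 ± 0.47, adjusted p = 9.6e-05). Probable sulfate transporter 3.5 was unlisted in all G2-CK libraries and had 460.2, 615 and 616 CPM in G2-S4, at least 132-fold higher, with a mean of 48.2 ± 43.8 CPM in G2-S3. The high affinity sulfate transporter 1 and sulfate transporter 2.1 were lower, with log2 fold changes of -3.20 ± 0.33 and -2.77 ± 0.73 (adjusted p = 6.3e-05 and 0.011), so that transporters of 1 family moved both ways. Sulfite reductase, which makes sulfide, had 510.0, 505 and 474 CPM in G2-S4, against 182, 147 and 137 CPM in G2-CK (log2 fold change 1.68 ± 0.15, adjusted p = 3.1e-05). All of these transporters except 3.1 were chosen after their values were seen.

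Of 12 names of iron uptake and storage 3 were higher and 4 lower (25% and 33.3%, against 26.3% each way over all names), and these counts do not set the list apart from other names. Ferritin-1, which stores iron in the plastid, had 552, 459 and 567 CPM in G2-S4, against 112, 118 and 103 CPM in G2-CK (log2 fold change 2.24 ± 0.19, adjusted p = 2.2e-05), and 13 of its 14 unigenes listed in the 6 libraries were higher without overlap. The transcription factor bHLH100, which is induced by iron deficiency in Arabidopsis, had 5.68 and 5.27 CPM in G2-S4 (unlisted in replicate 3), against 469, 615 and 578 CPM in G2-CK (log2 fold change -7.25 ± 1.28, adjusted p = 0.0013, and -6.32 with unlisted unigenes at the limit). BRUTUS, an iron-binding regulator of the same response in Arabidopsis, had 155, 155 and 138 CPM in G2-S4, against 509.8, 800.0 and 798 CPM in G2-CK (log2 fold change -2.24 ± 0.30, adjusted p = 2.7e-04), and 16 of its 16 unigenes listed in the 6 libraries were lower without overlap. bHLH47, known as POPEYE in Arabidopsis and chosen after its values were seen, had a log2 fold change of -2.14 ± 0.38 (adjusted p = 0.0013). The dioxygenase of deoxymugineic acid, a grass phytosiderophore, had 491, 602 and 693 CPM in G2-S4, against 429, 366 and 379 CPM in G2-CK (log2 fold change 0.61 ± 0.12, adjusted p = 0.0026), while 8 of its unigenes were lower and 2 higher without overlap.

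Of 16 names of proline, betaine and polyamine metabolism 9 were higher and 3 lower (median 0.52). Delta-1-pyrroline-5-carboxylate synthase, the rate-limiting enzyme of proline synthesis, had 1663, 1741 and 1513 CPM in G2-S4, against 137, 146 and 169.9 CPM in G2-CK (log2 fold change 3.44 ± 0.18, adjusted p = 3.3e-06), and 12 of 12 unigenes listed in the 6 libraries were higher without overlap. Pyrroline-5-carboxylate reductase, the last step, had a log2 fold change of 1.09 ± 0.15 (adjusted p = 3.7e-04). Proline dehydrogenase 2, which starts proline breakdown in the mitochondrion, had 230.1, 126 and 143 CPM in G2-S4, against 377, 216 and 210.4 CPM in G2-CK (log2 fold change -0.69 ± 0.36, adjusted p = 0.14), and the groups overlapped. Arginine decarboxylase 1, a first step towards putrescine, had 894, 1172 and 1461 CPM in G2-S4, against 46.4, 35.1 and 38.8 CPM in G2-CK (log2 fold change 4.87 ± 0.36, adjusted p = 1.1e-05), whereas the entry arginine decarboxylase without a number had 5.82, 5.30 and 6.04 CPM in G2-S4, against 11.9, 13.2 and 13.6 CPM in G2-CK (log2 fold change -1.17 ± 0.13, adjusted p = 9.1e-05, and -0.73 with unlisted unigenes at the limit). S-adenosylmethionine decarboxylase, which supplies the next steps to spermidine and spermine, had 2199, 2271 and 2028 CPM in G2-S4, against 1002, 946 and 902 CPM in G2-CK (log2 fold change 1.19 ± 0.09, adjusted p = 1.5e-05). The reductase and the second decarboxylase entry were chosen after their values were seen.

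In trehalose, raffinose and inositol metabolism 8 of 20 names were higher and 4 lower (40% and 20%, against 26.3% each way over all names; median 0.49). Galactinol synthase 1, the first step to raffinose, had 206, 307 and 189 CPM in G2-S4, against 70.8, 47.6 and 38.9 CPM in G2-CK (log2 fold change 2.16 ± 0.31, adjusted p = 3.8e-04). For starch, 17 of 37 names were higher and 8 lower (45.9% and 21.6%, median 0.38). ADP-glucose pyrophosphorylase, which commits glucose to starch, had unlike entries for its large subunit 1. The chloroplastic/amyloplastic entry had 531, 699 and 965 CPM in G2-S4, against 16.1, 21.8 and 24.6 CPM in G2-CK (log2 fold change 5.14 ± 0.60, adjusted p = 1.3e-04) and the chloroplastic entry 204, 227 and 169 CPM in G2-S4, against 316, 391 and 367 CPM in G2-CK (log2 fold change -0.84 ± 0.13, adjusted p = 5.2e-04).

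**Figure D3:**
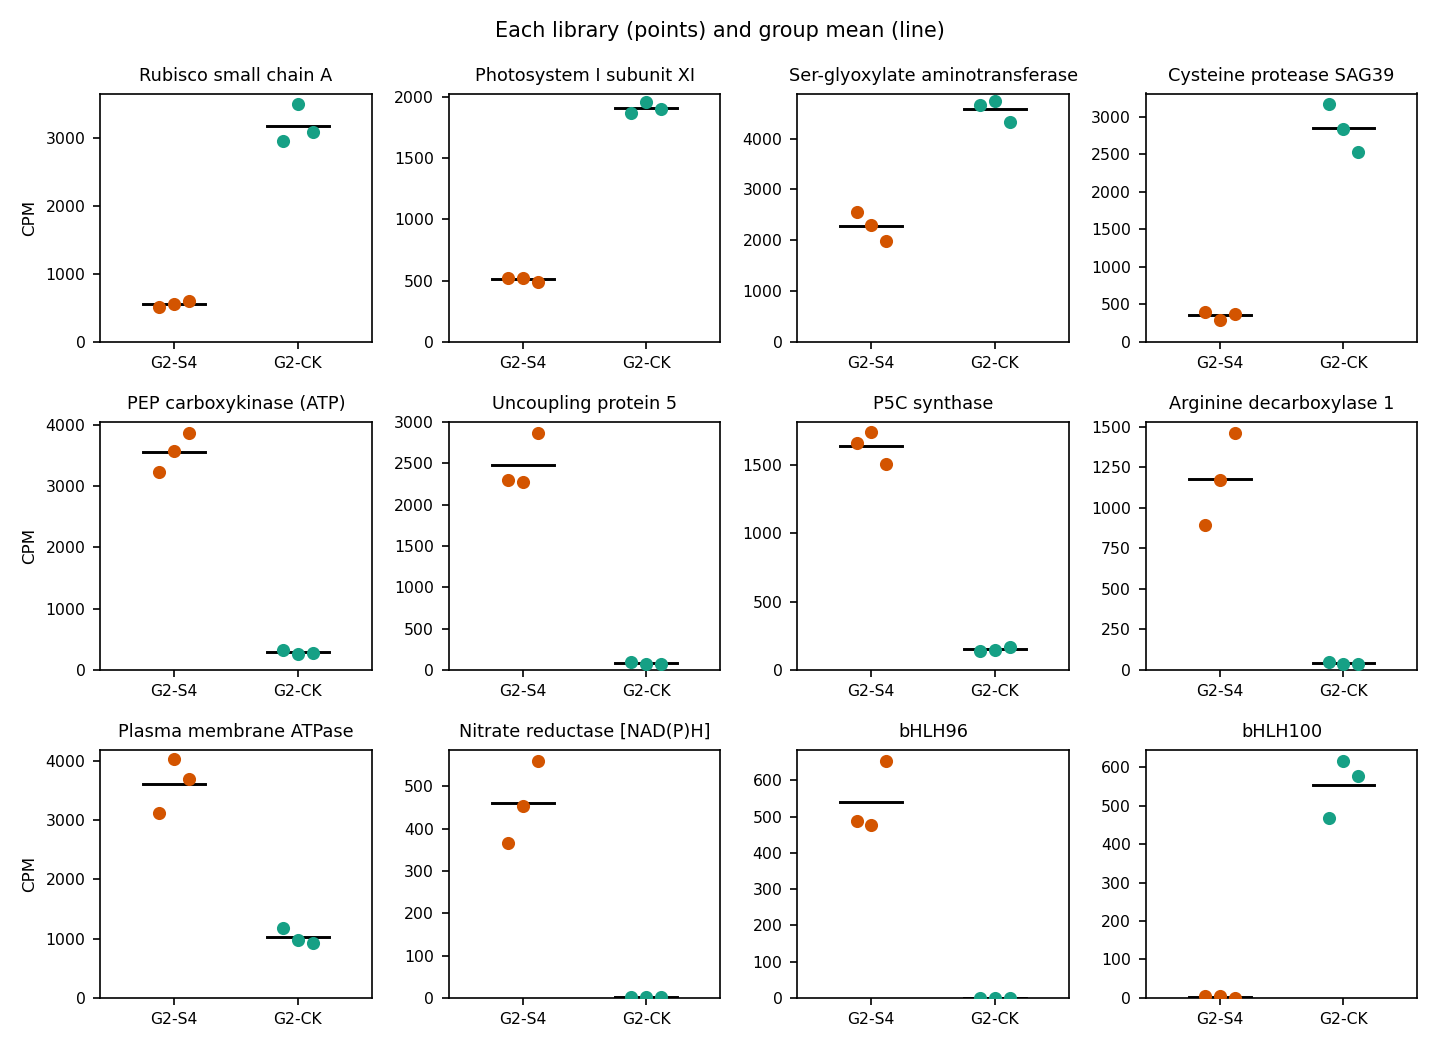
CPM (vertical axes, starting at 0) of 12 protein names in each G2-S4 library (orange, left) and each G2-CK library (green, right), with the group mean as a bar. In all 12 the libraries of the groups do not overlap, which their choice among called names favours. Over all 10845 names tested, 3435 were higher and 3479 lower without overlap. Rubisco small chain A is at 514 to 602 CPM in G2-S4 and 2954 to 3509 CPM in G2-CK, and the plasma membrane ATPase at 3120.2 to 4036 CPM in G2-S4 and 932 to 1183 CPM in G2-CK.

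Of 17 names of late embryogenesis abundant proteins, dehydrins and desiccation proteins, many of which protect cells from drying, 15 were higher and none lower, with a median log2 fold change of 1.29. Dehydrin DHN1 had 98.7, 51.04 and 38.5 CPM in G2-S4, against 0.123, 0.156 and 0.600 CPM in G2-CK (log2 fold change 7.74 ± 0.53, adjusted p = 9.2e-06), and dehydrin DHN3, chosen after its values were seen, 43.0, 34.9 and 25.5 CPM in G2-S4, against 0.492, 0.117 and 0.429 CPM in G2-CK (log2 fold change 6.63 ± 0.38, adjusted p = 5.0e-06). Both were highest in G2-S4 replicate 1 and close to the listing limit in G2-CK. Dehydrin COR410 was already present without salt, at 739, 668 and 539.8 CPM in G2-S4, against 185, 224 and 200.3 CPM in G2-CK (log2 fold change 1.68 ± 0.14, adjusted p = 2.5e-05). The early light-inducible protein HV60, a chlorophyll-binding protein of stressed thylakoids, had 4189, 3632 and 3805 CPM in G2-S4, against 2156, 1909 and 1558 CPM in G2-CK (log2 fold change 1.05 ± 0.25, adjusted p = 0.006), and HV90 had 3197, 2459 and 2574 CPM in G2-S4, against 1054, 899 and 599 CPM in G2-CK (log2 fold change 1.69 ± 0.45, adjusted p = 0.011). The member with the most reads, abscisic stress-ripening protein 2, had 8086, 7954 and 7949 CPM in G2-S4, against 6555, 5154 and 4589.5 CPM in G2-CK and was not called (adjusted p = 0.066), although its groups did not overlap.

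Proton pumps were mostly higher. Of 27 proton pump names 18 were higher and 1 lower (median 0.82). The plasma membrane ATPase, which sets up the gradient for secondary transport, had 3120.2, 4036 and 3696 CPM in G2-S4, against 1183, 982 and 932 CPM in G2-CK (log2 fold change 1.81 ± 0.16, adjusted p = 3.3e-05). Not all isoforms were called, since plasma membrane ATPase 1, chosen after its values were seen, had 146, 143 and 115 CPM in G2-S4, against 129.8, 130.2 and 127 CPM in G2-CK (adjusted p = 0.61) and the fragment entry of ATPase 2 172, 164 and 152 CPM in G2-S4, against 153, 159.9 and 152 CPM in G2-CK (adjusted p = 0.43). At the tonoplast, the catalytic subunit A of the V-type ATPase had 893, 836 and 865 CPM in G2-S4, against 435, 449 and 427 CPM in G2-CK (log2 fold change 0.98 ± 0.12, adjusted p = 1.3e-04) and the pyrophosphate-energized pump 652, 655 and 693 CPM in G2-S4, against 344, 372 and 417 CPM in G2-CK (log2 fold change 0.82 ± 0.12, adjusted p = 4.4e-04).

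Of 46 names of sodium and potassium transport 13 were higher and 17 lower (28.3% and 36.96%, against 26.3% each way over all names), with a median of -0.10, and these counts do not set the carriers apart from other names. Sodium/hydrogen exchanger 2, of the family that loads sodium into vacuoles, had 116, 103 and 87.7 CPM in G2-S4, against 304, 171 and 160.4 CPM in G2-CK (log2 fold change -1.05 ± 0.29, adjusted p = 0.013). Its sum holds 8 lower and 3 higher unigenes without overlap. Among HKT carriers of sodium, HKT6 had 1.03 CPM in G2-S4 (unlisted in replicates 1 and 3), against 28.5, 31.2 and 20.6 CPM in G2-CK (log2 fold change -6.30 ± 0.76, adjusted p = 1.5e-04, and -3.65 with unlisted unigenes at the limit), HKT1 22.6, 23.4 and 18.7 CPM in G2-S4, against 47.8, 54.1 and 46.1 CPM in G2-CK (log2 fold change -1.19 ± 0.12, adjusted p = 6.5e-05), and HKT9 16.2, 17.9 and 18.4 CPM in G2-S4, against 3.56, 4.37 and 3.17 CPM in G2-CK (log2 fold change 2.24 ± 0.14, adjusted p = 6.9e-06). The potassium channel KAT1, a channel of guard cells in Arabidopsis, had 141, 151 and 134 CPM in G2-S4, against 24.8, 33.7 and 34.1 CPM in G2-CK (log2 fold change 2.20 ± 0.24, adjusted p = 8.2e-05) and potassium transporter 7 183, 194 and 168 CPM in G2-S4, against 69.8, 55.2 and 60.04 CPM in G2-CK (log2 fold change 1.56 ± 0.15, adjusted p = 5.0e-05). The 3 HKT names, KAT1 and transporter 7 were chosen after their values were seen. CBL-interacting protein kinase 1, of the calcium signalling that acts on such carriers, had 197, 235 and 265 CPM in G2-S4, against 75.3, 86.8 and 87.7 CPM in G2-CK (log2 fold change 1.48 ± 0.12, adjusted p = 2.2e-05), in a list of 102 names with 30 higher and 25 lower (29.4% and 24.5%, likewise near the share over all names).

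Aquaporins, the water channels, had 10 of 20 names higher and 4 lower (50% and 20%, against 26.3% each way over all names). NIP2-2, a relative of the silicon channel of rice, had 164, 239 and 197 CPM in G2-S4, against 20.3, 12.9 and 19.5 CPM in G2-CK (log2 fold change 3.51 ± 0.32, adjusted p = 3.1e-05). The plasma membrane channel PIP1-2 had 150.3, 178 and 140.0 CPM in G2-S4, against 40.9, 46.6 and 46.3 CPM in G2-CK (log2 fold change 1.81 ± 0.14, adjusted p = 1.6e-05), while PIP2-5, chosen after its values were seen, had a log2 fold change of -2.83 ± 0.49 (adjusted p = 0.0012) and TIP4-2 of the tonoplast one of -0.72 ± 0.16 (adjusted p = 0.0048).

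Abscisic acid names were mostly higher, and auxin names were lower more often than higher. For abscisic acid 21 of 35 names were higher and 3 lower (median 0.51). Zeaxanthin epoxidase, an early enzyme of its synthesis, had 688, 664 and 464 CPM in G2-S4, against 194, 196 and 225 CPM in G2-CK (log2 fold change 1.56 ± 0.18, adjusted p = 1.2e-04). The 8'-hydroxylase 3, which inactivates the hormone, had 50.6, 47.2 and 70.2 CPM in G2-S4, against 10.5, 7.29 and 6.90 CPM in G2-CK (log2 fold change 2.76 ± 0.28, adjusted p = 5.2e-05). These are single entries of synthesis and of inactivation, and log2 fold changes in the list ran from -3.36 to 2.92. The receptor PYL8 had 366, 327 and 336 CPM in G2-S4, against 212, 183 and 196 CPM in G2-CK (log2 fold change 0.80 ± 0.10, adjusted p = 2.0e-04), the kinase SAPK9 of the pathway 181, 204 and 154 CPM in G2-S4, against 119, 113 and 114 CPM in G2-CK (log2 fold change 0.64 ± 0.11, adjusted p = 0.0013), and the phosphatase 2C 51, of a family that holds these kinases off, 21.4, 20.5 and 20.3 CPM in G2-S4, against 3.94, 1.67 and 2.63 CPM in G2-CK (log2 fold change 2.92 ± 0.31, adjusted p = 7.2e-05). The hydroxylase and the phosphatase were chosen after their values were seen.

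For auxin 31 of 61 names were lower and 16 higher (50.8% and 26.2%, against 26.3% each way over all names, median -0.36). The reads of the list nevertheless summed to 3415 ± 99.6 CPM in G2-S4 and 2831 ± 38.3 CPM in G2-CK, higher in G2-S4. IAA18, a repressor of auxin response, had 459, 509 and 506 CPM in G2-S4, against 82.9, 81.4 and 77.5 CPM in G2-CK (log2 fold change 2.61 ± 0.23, adjusted p = 2.8e-05), and auxin response factor 4 623, 634 and 547 CPM in G2-S4, against 346, 335 and 362 CPM in G2-CK (log2 fold change 0.79 ± 0.09, adjusted p = 1.1e-04). The YUCCA enzymes, which make auxin, moved both ways. YUCCA10 averaged 7.42 ± 0.339 CPM in G2-S4 and 41.3 ± 5.34 CPM in G2-CK (log2 fold change -2.47 ± 0.22, adjusted p = 2.8e-05) and YUCCA6 54.9, 36.6 and 13.6 CPM in G2-S4, against 1.09, 1.06 and 1.60 CPM in G2-CK (log2 fold change 4.82 ± 0.92, adjusted p = 0.002, and 2.08 with unlisted unigenes at the limit), both chosen after their values were seen.

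Scavengers of reactive oxygen were mostly higher outside the chloroplast and more often lower within it. Of 40 names 21 were higher and 13 lower (52.5% and 32.5%, against 26.3% each way over all names). Among the 15 with chloroplastic in their name 8 were lower and 5 higher (median -0.52), and among the other 25 5 were lower and 16 higher (median 0.72), a split made after the values were seen and not tested. Catalase-1, which breaks down hydrogen peroxide in peroxisomes, had 2743, 2341 and 2359 CPM in G2-S4, against 1411, 1403 and 1606 CPM in G2-CK (log2 fold change 0.75 ± 0.12, adjusted p = 7.1e-04). The cytosolic L-ascorbate peroxidase 2 had 1139, 1049 and 1143 CPM in G2-S4, against 627, 510.2 and 463 CPM in G2-CK (log2 fold change 1.06 ± 0.18, adjusted p = 0.0011) and monodehydroascorbate reductase, which restores ascorbate, 741, 632 and 686 CPM in G2-S4, against 336, 319 and 276 CPM in G2-CK (log2 fold change 1.15 ± 0.16, adjusted p = 3.4e-04). The chloroplastic iron superoxide dismutase 2, chosen after its values were seen, had 65.1, 58.5 and 55.5 CPM in G2-S4, against 174, 173 and 152 CPM in G2-CK (log2 fold change -1.48 ± 0.11, adjusted p = 1.0e-05).

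Chaperones and proteases were divided. Heat shock proteins and factors had 20 lower and 10 higher names of 46 (43.5% and 21.7%, against 26.3% each way over all names, median -0.35). The chloroplastic heat shock protein 90-5 had 859.6, 853 and 854 CPM in G2-S4, against 1450.0, 1363 and 1257 CPM in G2-CK (log2 fold change -0.67 ± 0.08, adjusted p = 1.4e-04) and the cytosolic 81-1 523, 572 and 413 CPM in G2-S4, against 780.4, 722 and 783 CPM in G2-CK (log2 fold change -0.60 ± 0.11, adjusted p = 0.002). The chloroplastic chaperone ClpD1 of the same list was higher, with 1444, 1316 and 977 CPM in G2-S4, against 935, 507 and 430 CPM in G2-CK (log2 fold change 1.00 ± 0.28, adjusted p = 0.014). That call was lost without G2-CK replicate 2. ClpC2, the chaperone of the chloroplast Clp protease, rose to 4860.5, 4492 and 3577 CPM in G2-S4, against 2521, 2616 and 2466 CPM in G2-CK (log2 fold change 0.77 ± 0.14, adjusted p = 0.0015). For the proteasome 23 of 43 names were higher and none lower, with a small median of 0.27. Regulatory subunit 4, an ATPase of its base, had 314, 315 and 302 CPM in G2-S4, against 216, 217 and 217 CPM in G2-CK (log2 fold change 0.52 ± 0.07, adjusted p = 3.5e-04).

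Of 32 names of autophagy and senescence proteases 14 were higher and 5 lower (43.75% and 15.6%, against 26.3% each way over all names). The lower ones were 3 when replicate 1 or 3 of either group was left out. The cysteine protease oryzain alpha, of the papain family of rice, had 3506, 3628 and 3102 CPM in G2-S4, against 1462, 1346 and 1186 CPM in G2-CK (log2 fold change 1.36 ± 0.11, adjusted p = 2.0e-05), and oryzain gamma 1342, 1384 and 1116 CPM in G2-S4, against 486, 457 and 477 CPM in G2-CK (log2 fold change 1.44 ± 0.11, adjusted p = 1.2e-05). SAG39, named for senescence in rice, went the other way with 396, 295 and 369 CPM in G2-S4, against 3164, 2840.5 and 2531 CPM in G2-CK (log2 fold change -3.01 ± 0.16, adjusted p = 3.5e-06). Vacuolar-processing enzyme, which activates such proteases, overlapped at 3222, 3925 and 2551 CPM in G2-S4, against 3542, 4232 and 3931 CPM in G2-CK and was not called.

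Of names for defence and for phenylpropanoid synthesis more were higher than lower, whereas expansins and xyloglucan enzymes were split evenly. Of 45 pathogenesis-related and defence names 25 were higher and 7 lower (median 0.74). Thaumatin-like pathogenesis-related protein 1, of an antifungal family that includes osmotin, had 121, 228 and 309 CPM in G2-S4, against 4.02, 2.96 and 2.47 CPM in G2-CK (log2 fold change 6.11 ± 0.66, adjusted p = 7.8e-05). Glucan endo-1,3-beta-glucosidase 8, an enzyme of callose and fungal walls, had 229, 217 and 214 CPM in G2-S4, against 41.2, 31.0 and 32.4 CPM in G2-CK (log2 fold change 2.66 ± 0.27, adjusted p = 5.7e-05), whereas glucosidase 12, chosen after its values were seen, had a log2 fold change of -3.85 ± 0.53 (adjusted p = 3.0e-04). In phenylpropanoid and lignin synthesis 19 of 32 names were higher and 6 lower. Cinnamoyl-CoA reductase 1, the entry to lignin monomers, had 707, 677 and 708 CPM in G2-S4, against 575, 467 and 443 CPM in G2-CK (log2 fold change 0.49 ± 0.10, adjusted p = 0.0035), with 8 unigenes higher and 8 lower without overlap. Tryptamine hydroxycinnamoyltransferase 2, which joins hydroxycinnamic acids to tryptamine, had 559.7, 407 and 267 CPM in G2-S4, against 3.74, 3.11 and 2.25 CPM in G2-CK (log2 fold change 7.07 ± 0.37, adjusted p = 3.3e-06, and 6.11 at the limit). Of 16 names of expansins and xyloglucan enzymes, which loosen and remodel walls, 7 were higher and 7 lower (43.75% each, against 26.3% each way over all names; median -0.14). Their reads summed to 621 ± 85.6 CPM in G2-S4 and 294 ± 22.7 CPM in G2-CK. The member with the most reads was EXORDIUM, at 337 ± 82.7 CPM in G2-S4 and 4.35 ± 0.91 CPM in G2-CK. The higher sum thus rests on this 1 name, whose libraries are given below. In cellulose, xylan and callose synthesis 14 of 41 names were higher, 5 lower and 22 not called (34.1% higher and 12.2% lower, against the same 26.3%).

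The remaining large increases under the naming rule included regulators, a transporter, a wall protein and a protease. The transcription factor bHLH96 had 488, 477 and 653 CPM in G2-S4, against 0.615, 0.638 and 0.0429 CPM in G2-CK (log2 fold change 10.26 ± 1.04, adjusted p = 5.6e-05, and 7.52 with unlisted unigenes at the limit). It was present at 92.7 ± 94.0 CPM in G2-S3. Of 34 bHLH names 14 were higher and 7 lower (41.2% and 20.6%, against 26.3% each way over all names), and 9 were higher without G2-CK replicate 2. LOB domain-containing protein 37, a repressor of nitrogen-responsive genes in Arabidopsis, had 63.9, 54.8 and 60.8 CPM in G2-S4, against 0.903, 0.0780 and 0.815 CPM in G2-CK (log2 fold change 6.65 ± 0.62, adjusted p = 3.8e-05, and 5.55 at the limit). Protein DETOXIFICATION 29, of a family of efflux carriers, had 192, 209.6 and 200.5 CPM in G2-S4, against 4.59, 1.91 and 1.02 CPM in G2-CK (log2 fold change 6.31 ± 0.76, adjusted p = 1.5e-04, and 5.04 at the limit). EXORDIUM, a wall protein linked with growth in Arabidopsis, belongs to the list of expansins and xyloglucan enzymes. It had 258, 329 and 423 CPM in G2-S4, against 5.25, 3.43 and 4.37 CPM in G2-CK (log2 fold change 6.27 ± 0.63, adjusted p = 5.5e-05, and 5.81 with unlisted unigenes at the limit). The aspartyl protease At4g16563 had 60.01, 100.3 and 152 CPM in G2-S4, against 2.70, 1.70 and 1.85 CPM in G2-CK (log2 fold change 5.64 ± 0.51, adjusted p = 3.1e-05, and 4.68 at the limit). In none of the 5 did the groups overlap, which the naming rule itself favours. Over all 10845 names tested, 3435 were higher and 3479 lower without overlap.

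Among the largest decreases, alpha-terpineol synthase, which makes a volatile monoterpene in the plastid, had 57.2, 29.6 and 16.1 CPM in G2-S4, against 1427, 1659 and 1316 CPM in G2-CK from a single unigene (log2 fold change -5.42 ± 0.48, adjusted p = 2.9e-05). The small MYB-related protein RADIALIS-like 3 had 3.65, 2.94 and 2.54 CPM in G2-S4, against 167, 136 and 98.9 CPM in G2-CK (log2 fold change -5.46 ± 0.23, adjusted p = 1.7e-06, and -4.04 at the limit) and RADIALIS-like 1 3.78, 2.91 and 2.91 CPM in G2-S4, against 77.0, 63.5 and 48.7 CPM in G2-CK (log2 fold change -4.30 ± 0.21, adjusted p = 2.5e-06). Arogenate dehydratase 3, the last step of phenylalanine synthesis, had 1.57, 1.30 and 1.48 CPM in G2-S4, against 64.5, 31.8 and 36.7 CPM in G2-CK (log2 fold change -4.93 ± 0.63, adjusted p = 2.1e-04, and -3.79 at the limit). The GDSL esterase/lipase At5g37690 had 6.07, 4.38 and 6.71 CPM in G2-S4, against 129, 145 and 121 CPM in G2-CK (log2 fold change -4.52 ± 0.17, adjusted p = 1.1e-06), and the dioxygenase At3g111800 2.74, 1.97 and 1.20 CPM in G2-S4, against 74.1, 24.1 and 32.3 CPM in G2-CK (log2 fold change -4.46 ± 0.56, adjusted p = 1.8e-04, and -3.70 at the limit). Bark storage protein A, a nitrogen store of poplar bark, had 16.4, 13.5 and 40.9 CPM in G2-S4, against 610.3, 358 and 294 CPM in G2-CK (log2 fold change -4.15 ± 0.45, adjusted p = 8.1e-05), lowest in G2-S4 replicate 2. Metallothionein-like protein 3B, a metal-binding protein, lost many reads at a modest fold change, with 3179, 2739 and 2484 CPM in G2-S4, against 6045, 5486 and 4337 CPM in G2-CK (log2 fold change -0.92 ± 0.18, adjusted p = 0.002).

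The intermediate dose gave values side by side, described without a test because both comparisons share the G2-CK libraries. Photosystem subunits summed to 12776 ± 701 CPM at 0 mM, 10911 ± 776 CPM at 250 mM and 5296 ± 53.8 CPM at 420 mM (SD, n = 3 each), and photorespiration names to 21999.6 ± 1105 CPM at 0 mM, 21617 ± 547 CPM at 250 mM and 12879 ± 659 CPM at 420 mM. For both, most of the difference from 0 mM lay above 250 mM. Plastid ribosomal proteins summed to 8931 ± 455 CPM at 0 mM, 7123 ± 554 CPM at 250 mM and 4409 ± 311 CPM at 420 mM, in steps of more even size. C4 cycle proteins summed to 3799 ± 229 CPM at 0 mM, 7033 ± 1689.9 CPM at 250 mM and 10228 ± 761 CPM at 420 mM, and proton pumps to 3846 ± 118 CPM at 0 mM, 5388 ± 734 CPM at 250 mM and 8634 ± 365 CPM at 420 mM. Names of proline, betaine and polyamine metabolism summed to 2239 ± 137 CPM at 0 mM, 3026 ± 461 CPM at 250 mM and 6467 ± 170.1 CPM at 420 mM. Single proteins differed in the same way, as phosphoenolpyruvate carboxykinase (ATP) had reached 2704 ± 1238 CPM in G2-S3, while delta-1-pyrroline-5-carboxylate synthase stood at 344 ± 80.5 CPM there. Of the 5703 called names, 4595 (80.6%) had a G2-S3 mean between those of G2-S4 and G2-CK. A call requires a gap between the outer groups, which itself favours a mean in between. The share over all names tested was not computed, so no graded response is read from this count.

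**Figure D4:**
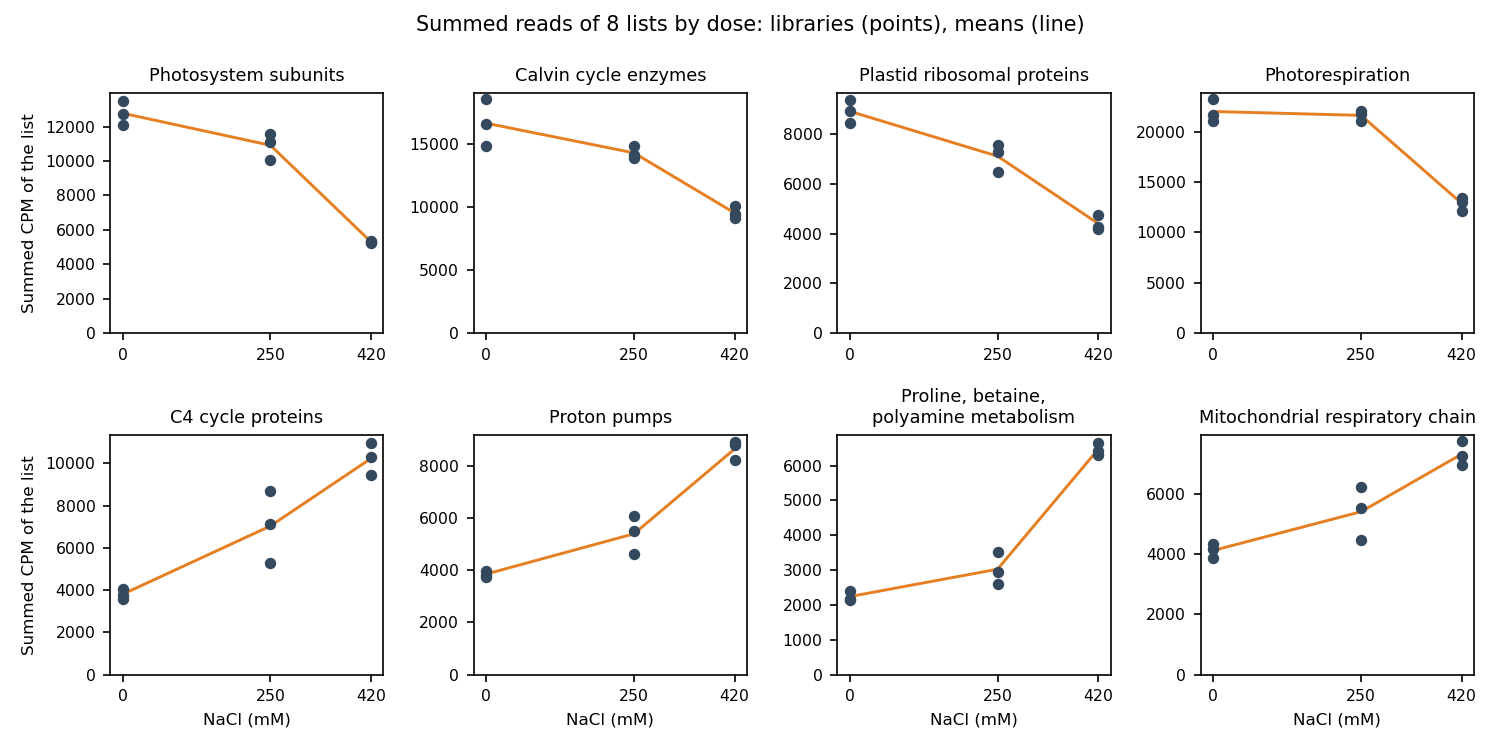
Summed CPM (vertical axes, starting at 0) of 8 lists in the 9 libraries (points) at 0, 250 and 420 mM NaCl (horizontal axes), with lines through the group means. Sums of photosystem, Calvin cycle, plastid ribosomal and photorespiration names are lowest at 420 mM, for photosystem subunits at 5296 ± 53.8 CPM, and sums of the other 4 lists are highest there.

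Some unigenes of this comparison and a reference were also targets of qRT-PCR in the study. Their primers, taken from the study's supplementary table, are shown because they tie the protein names to single unigenes, each with the forward and the reverse primer from 5′ to 3′ in lower case.
PMT26 forward: gcctcgacaatgagaaggct
PMT26 reverse: gcttggtgtgaggcacattg
Tetraspanin-8 forward: cgatcaccaccaactcgacg
Tetraspanin-8 reverse: gcagccgatggagtagacga
ACC oxidase 1 forward: caacggcaggtacaagagcg
ACC oxidase 1 reverse: tcctcgaacacgaacctggg
Unnamed unigene forward: cctctcagatccaagctcctca
Unnamed unigene reverse: tcggaatcaccttgtgccg
Proline dehydrogenase 2 forward: gcgtgttcgtctcttgtgtcc
Proline dehydrogenase 2 reverse: aactcgagcaccttcctctcg
RPN6 reference forward: cacacgactagcagctttcaag
RPN6 reference reverse: ttcaaacgtcgggaaggttg

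The reference RPN6, a lid subunit of the proteasome, had 25.01, 24.8 and 27.0 CPM in G2-S4, against 25.37, 24.7 and 24.3 CPM in G2-CK for its unigene of 1916 bp and 50.4, 50.9 and 51.5 CPM in G2-S4, against 48.7, 48.7 and 47.2 CPM in G2-CK for all unigenes of the name (log2 fold change 0.08 ± 0.07, adjusted p = 0.33). The unigene of 1-aminocyclopropane-1-carboxylate oxidase 1, the last enzyme of ethylene synthesis, had 25.1, 23.03 and 22.5 CPM in G2-S4, against 7.48, 3.65 and 4.86 CPM in G2-CK, and its name 203, 177 and 209 CPM in G2-S4, against 56.9, 39.6 and 39.5 CPM in G2-CK (log2 fold change 2.11 ± 0.29, adjusted p = 2.9e-04). Tetraspanin-8, a membrane protein, had 14.8, 17.0 and 15.4 CPM in G2-S4, against 8.11, 5.12 and 5.80 CPM in G2-CK in the unigene, and the sum over the name was higher (log2 fold change 1.12 ± 0.17, adjusted p = 6.5e-04). The methyltransferase PMT26 had 3.94, 4.64 and 6.26 CPM in G2-S4, against no listed value in G2-CK in the unigene, and the sum over the name was higher (log2 fold change 1.77 ± 0.31, adjusted p = 0.0012, and 1.04 with unlisted unigenes at the limit). The unigene without a Swiss-Prot name, Cluster-14027.51601 of 953 bp, had 41.9, 59.9 and 63.9 CPM in G2-S4, against 0.615, 0.897 and 0.386 CPM in G2-CK. For proline dehydrogenase 2 the unigene had 1.13 CPM in G2-S4 (unlisted in replicates 2 and 3), against 1.69, 2.68 and 2.25 CPM in G2-CK, whereas the sum over the name was dominated by other unigenes. For ACC oxidase 1, Tetraspanin-8 and PMT26 the unigene and the name were both higher in G2-S4, and the reference was not called.

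The unigenes behind the names were counted as well. Of 85 unigenes of photosystem subunits listed in all 6 libraries 69 were lower without overlap between the groups and 3 higher, against 25.7% lower and 18.6% higher over all 100441 unigenes so listed. Plastid ribosomal proteins had 151 lower and 3 higher of 182, the respiratory chain 152 higher and 11 lower of 245, and proton pumps 104 higher and 21 lower of 170. Sodium and potassium transport had 64 higher and 70 lower of 223, so that copies of these carriers moved in both directions.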

How the data were processed

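Poly-A RNA of leaves was sequenced in paired ends. Per the study's methods the authors assembled the reads with Trinity, clustered transcripts with Corset, mapped with bowtie2 and estimated counts with RSEM; the notes name CASAVA 1.8, RSEM and DESeq. The expected counts deposited by the authors are not normalized; the FPKM values deposited by the authors end at 0.31, so each list holds unigenes above 0.3 FPKM, and an unlisted unigene counted as 0 in sums. Columns of length and best database hits were deposited too.

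Counts were summed by Swiss-Prot name (text before the organism), without unigenes of human Nt description, and rounded. With R 4.3.3 and edgeR 4.0.16, names that passed filterByExpr (minimum count 50) got TMM scaling factors, and 1 model with a mean per group was fitted to all 9 libraries. G2-S4 was set against G2-CK by the two-sided quasi-likelihood F-test with Benjamini-Hochberg adjustment over all 10845 names (adjusted p under 0.05). The standard error is the fold change divided by the root of F. CPM use the TMM-scaled totals. Tables were made with Python 3.11.15, pandas 2.3.3 and scipy 1.17.1, figures with matplotlib 3.10.9. Nothing states how replicates were separated beyond biological replicates in blocks of pots, and n = 3 limits every p-value to the spread among these samples.

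Named are the 10 largest increases and 10 largest decreases among names called in the full fit and without each of the 6 libraries, with a mean of at least 20 CPM and a listed unigene in every library; the 8 largest gains and losses in CPM; in each of 32 lists up to 3 called names and the not called name with the most reads; the reference and the qRT-PCR proteins. Not all names picked by list are printed in the paragraphs on the lists. Left out there are not called names such as indole-3-acetaldehyde oxidase, protein phosphatase 2C 50 and chitinase 8. The same holds for cytochrome P450 98A1 and probable L-ascorbate peroxidase 4. Others were added after their values were seen and are marked so. Members and lists (55, by words in the names) were chosen with earlier results of these data known. On simulated data for G2-S4 vs G2-CK the fit recovered 39.3% of changes of 1.5-fold, 75.4% of 2-fold and 99.5% of 4-fold, with 3.75%, 3.36% and 3.90% false calls. The simulated data held 196, 191 and 198 changed names that were tested, far fewer than the 5703 called here, so these shares do not carry over to the real fit. Alternatives were RLE size factors, DESeq2 1.42.0, other count minimums, unlisted values at the limit, 6 libraries only, a replicate block, green plant hits only, human sequences kept, a fold limit and leaving out each library.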

Additional observations from a re-analysis of the deposited data

Results flagged for a closer look

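Reads outside the plant were measured because the comparison leaves them out. Unigenes with a human description held 0.138%, 0.0814% and 0.0445% of the listed reads in G2-S4 replicates 1, 2 and 3, against at most 0.000153% in the G2-CK libraries. Unigenes described as another animal held 0.0134%, 0.00896% and 0.00541% in the same G2-S4 libraries and at most 0.00262% in G2-CK. Both were above the level of the control libraries in every G2-S4 library. They move with the groups, and their part in results other than those of the alternatives with these sequences kept or left out was not tested.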

How the results depend on the processing

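The count of called names was 5703 and lay between 4836 (without G2-CK replicate 2) and 6103 (without G2-S3 replicate 3) when single libraries were left out. It was 5688 with RLE size factors, 5889 with DESeq2, 5802 with the 6 libraries only, 5902 and 4991 with minimum counts of 10 and 200, 5912 with no filter, 4900 of 8993 with green plant hits only, 5726 with human sequences kept, 5703 with other animal sequences also left out (chosen after seeing the data) and 5776 with unlisted values at their limit. A fold limit of 2 left 1719 calls, 874 higher and 845 lower. A replicate block gave 5262 calls (2643 higher, 2619 lower) and kept 91.2% of the calls. Whether the replicate numbers stand for blocks is not stated. Deviations of same-numbered G2-S4 and G2-CK libraries from their group means had correlations of -0.02, 0.06 and -0.12, which cannot settle it. The share of reads with a best hit outside the green plants differed by 0.0743 percentage points, and by -0.00787 to 0.153 with single libraries left out, so its sign is not stable.

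Of 212 named proteins, 11 of the 175 called lost the call in at least 1 alternative and 14 of the 37 not called gained one. With human sequences kept, cytochrome c oxidase subunits 1 and 2 turned to 3.49 and 2.22. Among those not called, 7 changed sign with single libraries left out: Chlorophyll a-b binding protein 1, chloroplastic ranged over -0.139 to 0.189, Protein PROTON GRADIENT REGULATION 5, chloroplastic over -0.152 to 0.0295, 50S ribosomal protein L1, chloroplastic over -0.25 to 0.00390, Acyl-coenzyme A oxidase 2, peroxisomal over -0.0734 to 0.207, Indole-3-acetaldehyde oxidase over -0.0772 to 0.0667, Alpha-glucan water dikinase, chloroplastic over -0.121 to 0.0213 and Transcription factor bHLH13 over -0.605 to 0.0644. Of 55 lists, 47 kept the side of their median in every alternative. With 3 libraries a group, the simulated data gave back 39.3% of changes of 1.5-fold. They held far fewer changed names than were called here, so the share of small changes missed in the data is not known.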
